A study of Mus musculus with 6 samples.

Results

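The 6 alpha-arrestin genes of the mouse, Txnip and its paralogs Arrdc1, Arrdc2, Arrdc3, Arrdc4 and Arrdc5, were followed by gene symbol in a table of 24410 genes, and all 6 had a row. RNA was sequenced from 3 libraries of Txnip -/- mice (KO 1 to KO 3) and 3 libraries of wild-type mice (WT 1 to WT 3), all of the C57BL/6 strain at 5 months of age. Bone marrow cells without lineage markers were cultured for 3 days with stem cell factor (Scf) and another cytokine, and the CD41+ cells were then sorted. The labels do not say how the Txnip allele was made, whether animals were pooled, or what a replicate number stands for. Levels are in FPKM, in which the fragments of a gene are divided by the length of its transcript and by the library's mapped total, so levels can be set side by side between genes.

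Alpha-arrestins are adaptor proteins with an arrestin fold. Most of them carry PPxY motifs in the tail that bind ubiquitin ligases of the NEDD4 type, and through them membrane proteins are marked for uptake into endosomes. Txnip, the thioredoxin-interacting protein, also holds thioredoxin in a disulfide bond and removes glucose transporters from the cell surface. Its transcription, and that of Arrdc4, is driven by the glucose-sensing factors MondoA and ChREBP with their partner Mlx.

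The sorted cells held the megakaryocyte transcripts Itga2b, which encodes CD41, at 83.2 to 152 FPKM and Pf4, platelet factor 4, at 465 to 1545 FPKM. The summed level of 8 granulocyte markers ran from 3702 to 8543 FPKM in KO and from 5676 to 7309 FPKM in WT, so other myeloid transcripts were abundant. Of 7 lymphoid markers, Cd3e, a CD3 subunit of the T cell receptor complex, was at 0 in all 6 libraries. Cd79b, the 1 lymphoid marker that was tested, was at 7.3 to 15.5 FPKM in KO and 8.65 to 15.6 FPKM in WT. The summed level of 7 erythroid markers was 110 to 120 FPKM in KO and 134 to 161 FPKM in WT, without overlap. How often sums of other genes are separated was not computed. Sums of the megakaryocyte, monocyte and mast cell markers overlapped between genotypes. FPKM over all genes summed to between 715205 and 805730 in KO and between 720036 and 1131641 in WT. WT 2 stood apart, with 23.1% of its sum in Rpph1, the RNA of RNase P, against 6.41% to 9.82% in the other libraries. Xist, the RNA of the inactive X chromosome, was at 91.6 FPKM in KO 3 and 48.1 FPKM in WT 3 and at most 0.27 FPKM elsewhere, so libraries numbered 3 differed in sex from the rest in both genotypes.

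Txnip was the most abundant alpha-arrestin of the wild-type cells and was nearly absent from the knockout. It was listed at 0 FPKM in KO 1, 0.04 in KO 2 and 0 in KO 3, against 112, 228 and 143 FPKM in WT 1, WT 2 and WT 3. The groups lay far apart, and each library matched its genotype label. The difference between KO and WT was −7.26 on the log2(FPKM + 1) scale (95% interval −7.91 to −6.61; limma, adjusted p = 2.02e-05), lower in KO in 3 of 3 pairs of libraries with the same number. This size depends on the pseudocount, since the knockout level is at or next to 0, and no linear fold is given. Of the 11249 genes tested, 1 was called lower, or 0.00889%, and that gene was Txnip. In wild-type cells the mean of Txnip exceeded that of 95.5% of tested genes, and Txnip made up 70.4%, 81.4% and 77.0% of the summed FPKM of the family in WT 1, WT 2 and WT 3.

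Reads shared between members were checked on annotated transcripts. In the GENCODE M21 transcripts, 0 stretches of 31 bases were shared between any 2 of the 6 members, over 15 pairs of genes. An antisense gene, Gm15441, overlaps Txnip exons on the opposite strand, and the strand setting of the libraries is not given in the sources used here. Its level was 0.14, 0.33 and 0 FPKM in KO 1 to KO 3, against 0.26, 0.63 and 1.58 FPKM in WT 1 to WT 3. The ranges overlapped. Without a stated strand setting, reads of Txnip and of the antisense gene cannot be told apart where their exons overlap.

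Upstream sequence is shown for Txnip, the gene knocked out, and for Arrdc4 and Arrdc2, the paralogs with the widest differences between genotypes. Each run is the 250 bases before the start of the gene, 5′ to 3′ on the strand of the gene, from RefSeq on GRCm38.p6 (another build than the mm9 of the files). Txnip lies on the plus strand at chr3:96557707-96557956, Arrdc4 on the minus strand at chr7:68749239-68749488 and Arrdc2 on the minus strand at chr8:70839721-70839970. Capitals mark matches on either strand to 6 motifs. The first is CACGTG, the E-box, bound by Myc family factors. The next is the related site CACGAG. The tandem motif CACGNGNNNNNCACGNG places copies of these sites in the spacing known from carbohydrate response elements, so it overlaps the previous motifs. The box bound by NF-Y was searched as CCAAT. The forkhead site, bound by FoxO factors, was searched as GTAAACA. The TATA box of core promoters was searched as TATANAA. The motifs were chosen with the Txnip sequence in view.
Txnip: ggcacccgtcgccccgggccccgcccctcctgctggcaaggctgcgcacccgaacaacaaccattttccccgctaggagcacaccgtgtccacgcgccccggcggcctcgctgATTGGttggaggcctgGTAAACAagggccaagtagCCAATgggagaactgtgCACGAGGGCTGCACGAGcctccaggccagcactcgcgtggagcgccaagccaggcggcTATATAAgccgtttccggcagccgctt
Arrdc4: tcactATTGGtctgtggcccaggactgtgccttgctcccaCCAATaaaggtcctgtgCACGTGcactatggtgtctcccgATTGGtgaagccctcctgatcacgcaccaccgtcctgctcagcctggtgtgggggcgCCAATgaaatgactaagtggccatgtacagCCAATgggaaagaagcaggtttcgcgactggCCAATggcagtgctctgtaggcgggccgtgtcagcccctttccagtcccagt
Arrdc2: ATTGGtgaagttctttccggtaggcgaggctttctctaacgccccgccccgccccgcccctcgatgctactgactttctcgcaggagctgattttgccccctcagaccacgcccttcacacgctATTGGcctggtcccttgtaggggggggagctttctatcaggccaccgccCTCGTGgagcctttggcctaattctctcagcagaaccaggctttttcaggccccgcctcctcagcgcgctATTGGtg

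The Txnip window held the tandem sites 85 bases before the start, which 0.0457% of 32851 RefSeq promoter windows of this length hold (15 windows). It also held a forkhead site 121 bases before the start (3.17% of windows), a TATA box at 27 bases (10.4%) and 2 CCAAT boxes (33.8% hold at least 1). The Arrdc4 window held an E-box 193 bases before the start, a motif in 6.02% of windows, and 6 CCAAT boxes. The Arrdc2 window held 3 CCAAT boxes and a CACGAG site 77 bases before the start (5.37% of windows). Of the 6 members, Txnip alone matched the tandem, forkhead and TATA motifs and Arrdc4 alone the E-box, while CACGAG was found in Txnip, Arrdc1 and Arrdc2. These are letter matches in a short window and say nothing of binding.

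Arrdc4, a Mondo target that restrains glucose uptake in cultured cells, had the widest difference among the paralogs. It was at 12.7, 25.7 and 11.4 FPKM in KO 1 to KO 3, against 7.06, 14.4 and 5.64 FPKM in WT 1 to WT 3. The ranges overlapped: library 2 was the highest within each genotype, and WT 2 lay above KO 1 and KO 3. Within pairs the level in KO was 1.80, 1.78 and 2.02 times that in WT for numbers 1, 2 and 3. KO was above WT in 3 of 3 pairs, as for 20.4% of tested genes. The difference was 0.82 on the log2(FPKM + 1) scale (95% interval −0.09 to 1.72), and it did not pass (limma, adjusted p = 1.00). With the replicate number as a block the interval was 0.50 to 1.14 and the gene ranked 5 of 11249 by p, but it still did not pass over all genes (limma, adjusted p = 0.349). It passed with the block in 3 other fits, with libraries rescaled to a common sum (adjusted p = 0.0150, where 0.391% of genes were called higher), without pair 2 (adjusted p = 0.00808, where 0.836% were called higher) and without pair 3 (adjusted p = 0.0441, where 0.604% were). Without pair 1 it did not pass (adjusted p = 0.149, where 0.08% were). In the 3 fits it passed, the SE came largely from a spread that limma pools over genes. Without pair 3 it was 0.222 for Arrdc4, Txnip and Arrdc1 alike. With the common sum it was 0.225, 0.224 and 0.231. These passes therefore say little of the spread of Arrdc4 itself.

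The share of Arrdc4 in the summed FPKM of the paralogs is not changed by a single scaling factor per library, and it was not tested. Arrdc4 made up 18.6%, 40.8% and 21.4% of the FPKM of Arrdc1 to Arrdc5 in KO 1 to KO 3, against 15.0%, 27.7% and 13.2% in WT 1 to WT 3. The share was higher in KO in each pair, while the ranges of the genotypes overlapped. Megakaryocyte markers moved with library number as well: their sum was 673, 1809 and 976 FPKM in KO 1 to KO 3, against 652, 1658 and 1344 FPKM in WT 1 to WT 3. Their part in the level of Arrdc4 was not tested. In sorted bulk samples, more cells of a type and more RNA per cell cannot be told apart.

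**Figure D1:**
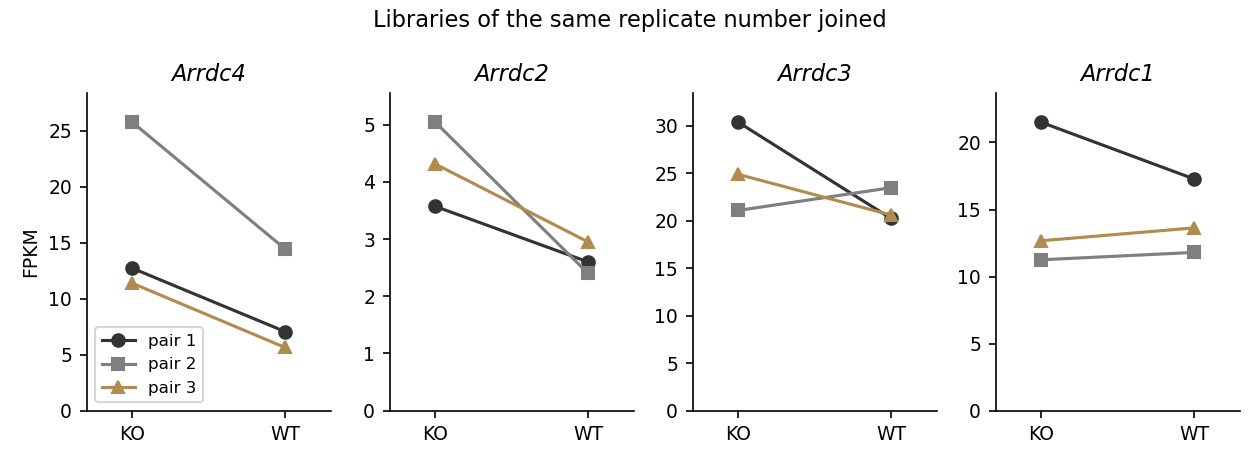
Level in FPKM of Arrdc4, Arrdc2, Arrdc3 and Arrdc1 in KO (left) and WT (right), with a line joining the libraries of the same replicate number. The Arrdc4 lines are lower at WT in all 3 pairs, with pair 2 on top, the Arrdc2 groups do not overlap, and the lines of Arrdc3 and Arrdc1 run both ways.

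Arrdc2 was the paralog whose genotypes were separated in all libraries. It was at 3.57, 5.04 and 4.31 FPKM in KO 1 to KO 3, against 2.60, 2.4 and 2.95 FPKM in WT 1 to WT 3. The lowest KO library lay above the highest WT library, as for 3.32% of tested genes. Within pairs the level in KO was 1.37, 2.10 and 1.46 times that in WT. The difference was 0.53 on the log2(FPKM + 1) scale (95% interval −0.02 to 1.09) and did not pass (limma, adjusted p = 1.00). With the replicate number as a block the interval was 0.11 to 0.95, and it did not pass either (limma, adjusted p = 0.683). By p Arrdc2 ranked 90 without the block, ahead of Arrdc4 at 129, and 273 with it. At 2 to 5 FPKM the gene was near the low end of those tested, with a WT mean above that of 12.7% of them, and the scale understates changes of low genes.

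Arrdc3, an adaptor that leads membrane cargo to NEDD4-type ligases, was the most abundant paralog of both genotypes on average. It was at 30.3, 21.1 and 24.9 FPKM in KO 1 to KO 3, against 20.2, 23.5 and 20.6 FPKM in WT 1 to WT 3. KO 2 lay below WT 2, so the ranges overlapped and the pairs differed in direction, at 1.5, 0.898 and 1.21 times the WT level. The difference was 0.22 (95% interval −0.26 to 0.71; limma, adjusted p = 1.00), an interval that holds both 0 and the 0.53 estimated for Arrdc2.

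Arrdc1, which recruits Tsg101 to the plasma membrane and drives the release of microvesicles, showed the smallest difference. It was at 21.5, 11.3 and 12.7 FPKM in KO 1 to KO 3, against 17.3, 11.8 and 13.6 FPKM in WT 1 to WT 3. Library 1 was the highest of both genotypes, and KO was above WT in 1 of 3 pairs. The difference was 0.05 (95% interval −0.60 to 0.70; limma, adjusted p = 1.00), and its sign turned with the scaling, to −0.014 with quantile normalization. Arrdc5, needed for sperm formation in the mouse, was listed at 0.08 FPKM in KO 1 and at 0 in the other 5 libraries. It was the 1 member of 6 that did not reach the minimum of 1 FPKM in at least 3 libraries and was not tested.

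**Figure D2:**
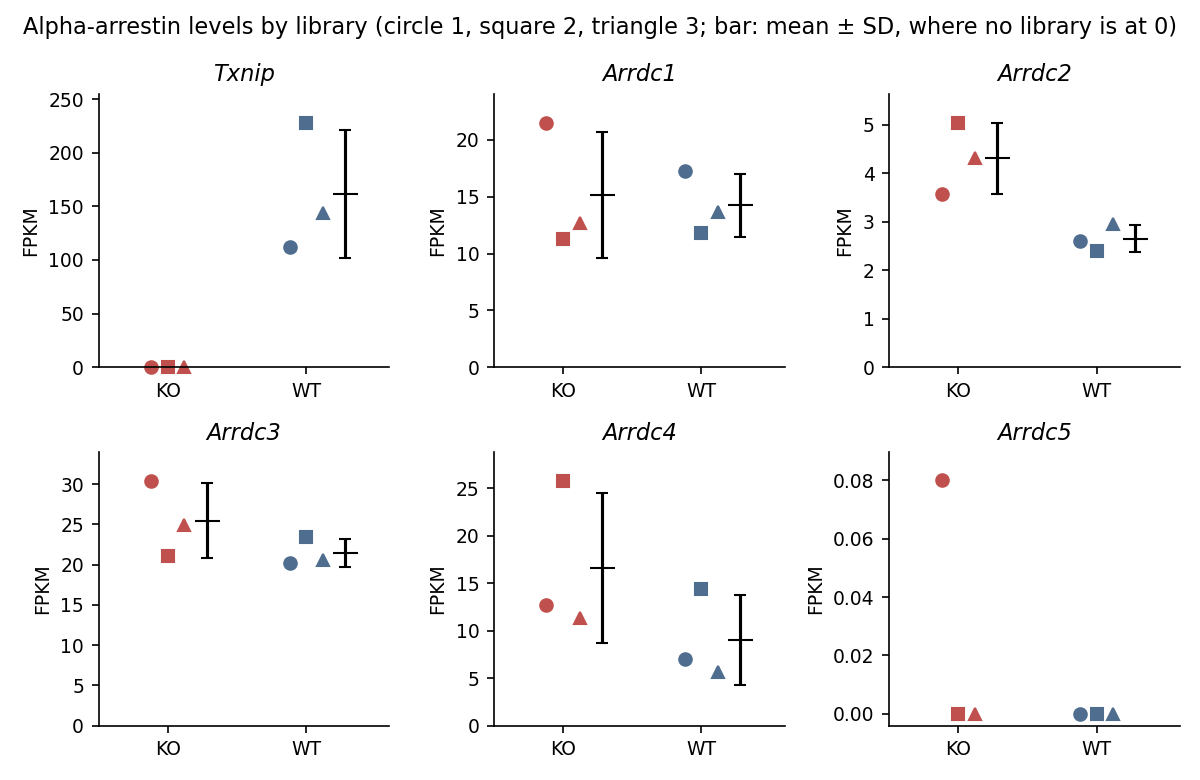
Level in FPKM of each alpha-arrestin in the 3 KO libraries (left) and the 3 WT libraries (right), by replicate number, with mean ± SD where no library of the group is at 0. Txnip is at 0 to 0.04 in KO and at 112 to 228 in WT, Arrdc2 is separated between the genotypes, and Arrdc5 is at 0 in all libraries but KO 1.

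The order of the mean levels was not the same in both genotypes. In KO, Arrdc3 averaged 25.4 ± 4.66 FPKM, Arrdc4 16.6 ± 7.94, Arrdc1 15.1 ± 5.55 and Arrdc2 4.31 ± 0.735 (SD, n = 3 each). In WT, Txnip averaged 161 ± 59.8 FPKM, Arrdc3 21.4 ± 1.77, Arrdc1 14.2 ± 2.79, Arrdc4 9.05 ± 4.72 and Arrdc2 2.65 ± 0.278 (SD, n = 3 each). In KO the ranges of Arrdc3, Arrdc4 and Arrdc1 overlapped and Arrdc2 lay below them. In WT only the neighbours Arrdc1 and Arrdc4 overlapped. KO 2 was the only library in which Arrdc4 stood first among the paralogs. Whether the order differs between genotypes beyond the spread was not tested.

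The summed FPKM of Arrdc1 to Arrdc5 was 68.2, 63.1 and 53.2 in KO 1 to KO 3, against 47.2, 52.1 and 42.8 in WT 1 to WT 3, so the groups did not overlap. Of single tested genes 3.32% were separated with KO above WT, and no such share was computed for sums of genes. The paralog sum remained far below the wild-type level of Txnip: the family as a whole summed to 61.5 ± 7.63 FPKM in KO and 209 ± 63.3 FPKM in WT (SD, n = 3 each). All 4 tested paralogs had a higher fitted value in KO, with a median difference of 0.38, beside 63.4% of all tested genes and a median of 0.06. None of the 4 passed with limma, with or without the block, which does not show that their levels were alike, and 0 had an unadjusted p under 0.05 without it. Of all 11249 tested genes, only 46 higher and 30 lower in KO had such a p without the block. With it Arrdc4 and Arrdc2 did (limma, unadjusted p = 1.8e-04 and 0.018), among 524 higher and 256 lower genes. Limma called 2 genes in all, 0.0178% of those tested, and 3 with the block (0.0267%).

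**Figure D3:**
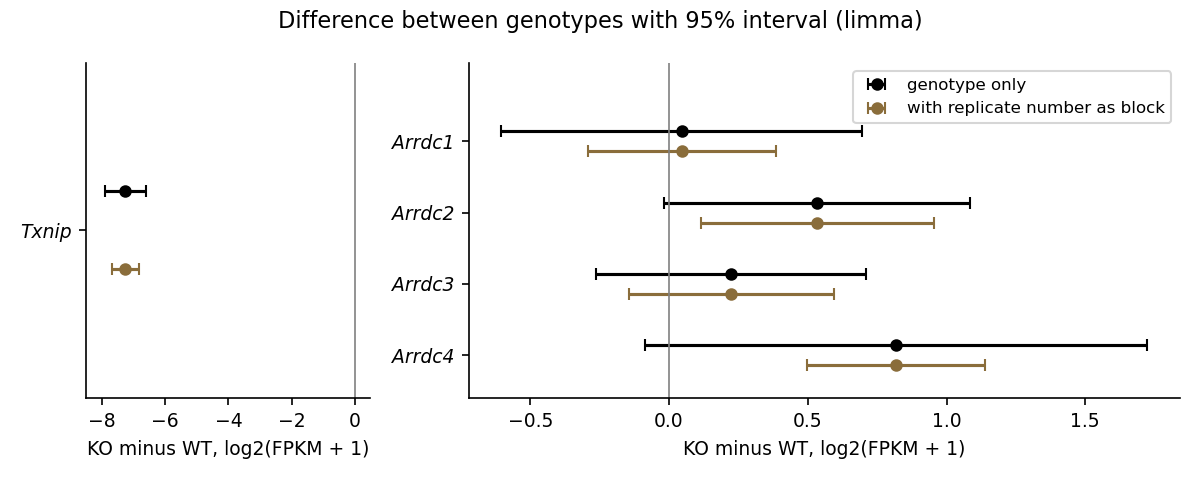
Difference KO minus WT on the log2(FPKM + 1) scale with its 95% interval from limma, for Txnip (left) and the 4 tested paralogs (right), fitted with genotype only (black) and with the replicate number as a block (brown). Txnip lies at −7.26, and the interval of Arrdc4 narrows from −0.09 to 1.72 without the block to 0.50 to 1.14 with it. That of Arrdc2 runs from −0.02 to 1.09 without the block and from 0.11 to 0.95 with it.

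Genes whose pattern over the 6 libraries was most like that of each member were listed by Pearson correlation of log2(FPKM + 1), the first 3 for each member among 8759 other genes. The 6 points share library, genotype and replicate number, so these are descriptions. For Txnip they were Bola3, a factor of iron-sulfur cluster assembly (r = 0.96), Txn1, the cytosolic thioredoxin that Txnip binds (r = 0.95), and Cmss1 (r = 0.95). Txn1 was at 244, 246 and 244 FPKM in KO 1 to KO 3, against 277, 304 and 276 FPKM in WT 1 to WT 3. Every KO library lay below every WT library, as for 1.03% of tested genes. Txnip itself separates the genotypes, so a choice by likeness to Txnip favours genes that do the same. The Txn1 difference of −0.22 did not pass (95% interval −0.66 to 0.22; limma, adjusted p = 1.00). Bola3 averaged 44.2 ± 2.47 FPKM in KO and 64.0 ± 5.92 FPKM in WT (SD, n = 3 each), and it did not pass either (limma, adjusted p = 1.00).

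For Arrdc4 the 3 genes were Rell1 (r = 0.99), the nuclear body protein gene Sp140 (r = 0.99) and Cd1d1, which presents lipids to T cells (r = 0.98). Sp140 was at 34.3, 52.7 and 35.9 FPKM in KO 1 to KO 3, against 27.6, 37.6 and 26.0 FPKM in WT 1 to WT 3, with library 2 highest in both genotypes as for Arrdc4. For Arrdc2 they were Cebpd, a transcription factor induced by glucocorticoids (r = 0.99), Rhbdd3 (r = 0.99) and Tbc1d7, a subunit of the tuberous sclerosis complex (r = 0.99). For Arrdc3 they were the recombination gene Rad52 (r = 0.95), Odf2l (r = 0.95) and Lsm14a of processing bodies (r = 0.93). For Arrdc1 they were Ifi203, an interferon-inducible gene, the choline kinase gene Chka and the phosphatidylserine synthase gene Ptdss2 (r = 1.00 each), and 1041 genes exceeded an r of 0.9 with it, against 6 for Arrdc3.

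The genes that work with alpha-arrestins were read from 6 lists. In each of them limma called 0 members in either direction, with and without the block, and 0 members had an unadjusted p under 0.05 without the block. Of all 11249 tested genes, only 46 higher and 30 lower in KO had such a p, so 0 in a short list says little. With the block 524 higher and 256 lower genes had one, among them Sgk1, Elovl6 and Arrb1 of the genes named below. Of 9 tested (11 listed) NEDD4-type ligases and adaptors, 6 were above and 3 below their WT value. Their median difference was 0.08, beside 0.06 for all tested genes. Of all tested genes, 63.4% had a higher value in KO, which is the share to set beside the counts of each list. Itch, a ligase that binds Txnip, was 27.5 ± 0.747 FPKM in KO and 25.5 ± 0.366 in WT (SD, n = 3 each). Members not tested did not reach the minimum level. The ligase gene Smurf1 was 3.80 ± 1.15 FPKM in KO and 3.13 ± 0.897 in WT, and the ligase adaptor gene Ndfip1 58.5 ± 9.08 in KO and 53.2 ± 4.52 in WT. Of 23 tested (24 listed) genes of the ESCRT machinery, which sorts ubiquitinated cargo and which Arrdc1 recruits, 20 had higher and 3 lower values (median 0.07). Among them Vps4a, the ATPase that takes the complex apart, was 23.6 ± 3.19 FPKM in KO and 19.1 ± 2.22 in WT, and Chmp1a 45.9 ± 7.33 in KO and 38.0 ± 2.7 in WT. Chmp4b, a filament-forming subunit, was 107 ± 23.7 FPKM in KO and 92.2 ± 9.73 in WT.

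Other proteins with an arrestin fold had higher values in 5 of 6 tested (8 in the table; median 0.13). Arrb1, a beta-arrestin of receptor desensitisation, was at 37.1, 34.8 and 34.1 FPKM in KO 1 to KO 3, against 27.8, 26.9 and 29.2 FPKM in WT 1 to WT 3. Its genotypes did not overlap, with KO above WT as for 3.32% of tested genes, and its difference of 0.32 did not pass (SE 0.18; limma, adjusted p = 1.00). Arrb2 was 38.0 ± 14.4 FPKM in KO and 34.0 ± 12.6 in WT, and the retromer subunit gene Vps26b 17.7 ± 1.27 in KO and 15.4 ± 0.986 in WT (SD, n = 3 each). Of 14 tested (17 listed) cargo proteins and partners, 10 had higher and 4 lower values (median 0.13). This median was −0.12 without KO 1 and −0.0052 without WT 2, and at most 0.29, without KO 2. Cops5, a signalosome subunit that binds Txnip, was 47.5 ± 2.51 FPKM in KO and 55.1 ± 0.483 in WT, lower in KO in each of the 3 pairs. The share of all tested genes that are lower in each pair was not computed. The receptor gene Notch1 was 8.65 ± 2.22 FPKM in KO and 6.72 ± 0.852 in WT. Slc2a1, the glucose transporter that Txnip removes from the surface, was at 40.9, 27.3 and 48.5 FPKM in KO 1 to KO 3, against 38.1, 26.7 and 38.6 FPKM in WT 1 to WT 3, and was named for that role outside the naming rule.

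The Mondo factors and their carbohydrate-response targets, a list that left Txnip and Arrdc4 out, had higher values in 10 and lower values in 3 of 13 tested (20 listed). Their median was 0.04, and it ran from −0.02 (without KO 3) to 0.18 (without WT 1) when single libraries were left out. The medians within pairs were −0.16, 0.11 and 0.11. Mlxip, which encodes MondoA, was 12.5 ± 6.52 FPKM in KO and 9.20 ± 3.47 in WT (SD, n = 3 each). The fatty acid elongase gene Elovl6 was 6.88 ± 3.03 FPKM in KO and 9.57 ± 4.28 in WT, lower in KO in each of the 3 pairs. How many of all tested genes are lower in each pair was not computed. The glycolytic regulator gene Pfkfb3 was 22.1 ± 5.56 FPKM in KO and 18.7 ± 3.55 in WT. Mlxipl, which encodes ChREBP, was not tested, at 0.0633 FPKM on average in KO and 0.0267 in WT.

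Of 19 tested (20 listed) genes induced by glucocorticoids or FoxO factors, 17 had higher and 2 lower values in KO. Over all tested genes 63.4% had higher values. The median of the list was 0.21, beside 0.06 for all tested genes, with medians within pairs of 0.36, 0.17 and 0.12. Leaving out single libraries, the median ran from 0.12 (without WT 3) to 0.34 (without KO 3). The kinase gene Sgk1 was at 11.4, 10.8 and 5.41 FPKM in KO 1 to KO 3, against 6.44, 6.78 and 4.01 FPKM in WT 1 to WT 3. KO was above WT in each pair, as for 20.4% of tested genes, although KO 3 lay below WT 1 and WT 2. The difference of 0.56 did not pass (SE 0.33; limma, adjusted p = 1.00). Cebpd was 15.4 ± 1.38 FPKM in KO and 12.2 ± 0.833 in WT, and the stress-responsive gene Sesn3 7.44 ± 0.418 in KO and 5.80 ± 0.626 in WT (SD, n = 3 each). Monocyte markers had higher values in KO in 7 of 7, with medians within pairs of 0.99, 0.43 and −0.09, and mast cell markers had lower values in 7 of 7. Their part in these differences was not tested.

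**Figure D4:**
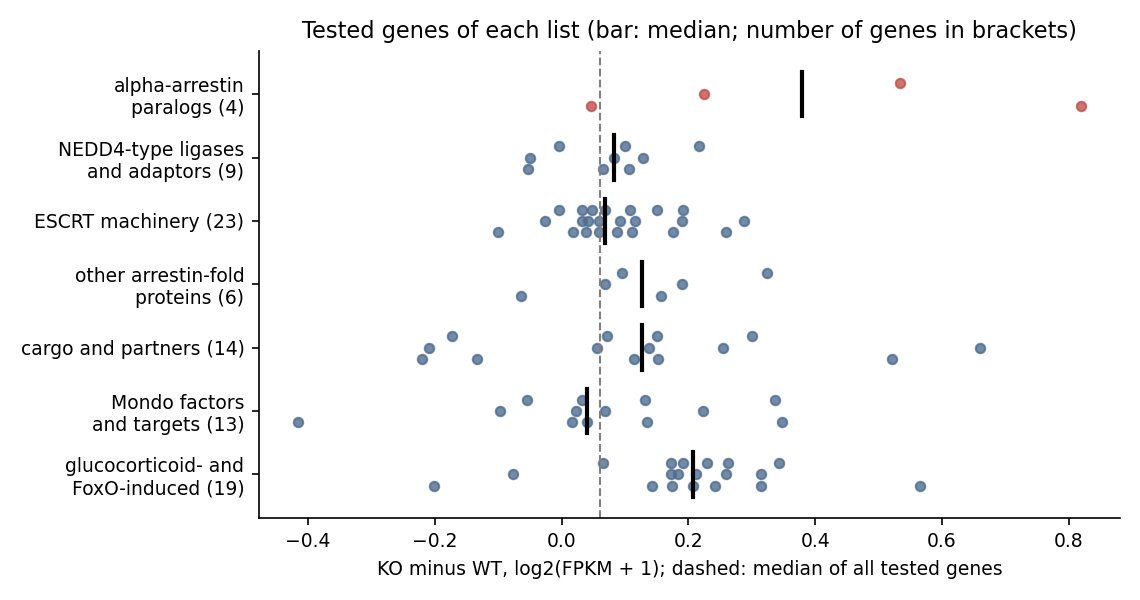
Difference KO minus WT on the log2(FPKM + 1) scale for the 4 tested paralogs and for the tested genes of each of the 6 lists, with the median of each as a bar and the median of all tested genes, 0.06, as a dashed line. Arrdc4 at 0.82 is the rightmost point, and the medians of the 6 lists lie between 0.04 and 0.21.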

How the data were processed

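The deposited values are FPKM per gene symbol and library, with 2 decimals, made by the authors. Per the submitters' processing notes, FastQC, Trimmomatic 0.39, STAR 2.7.0a and RSEM 1.2.31 were used with mm9; neither the role of each tool nor the annotation is stated in the sources. Depth is not stated. The spacing of low values resolved it in 3 libraries, at 14450000 to 19900000 fragments.

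Groups came from the sample titles. Limma 3.58.1 in R 4.3.3 (eBayes with a trend, two-sided) compared KO with WT on log2(FPKM + 1). Genes entered with 1 FPKM or more in 3 libraries or more, which left 11249. P-values were adjusted by Benjamini-Hochberg over all of these, and a gene was called under 0.05. The procedure was tested on simulated data. Libraries of the same number deviated together (r = 0.81, 0.59 and 0.38 across genes), so the numbers were taken to pair the samples. "Pair" means libraries of the same number. Separate animals are not stated for the replicates, so p-values cover only the spread between these libraries, which may be technical. The members and lists were chosen with earlier results of these data known. Named from each list were the 3 tested members of smallest p. A gene that this rule names is not reported here. Protein sequences were not used here.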

Additional observations from a re-analysis of the deposited data

How the results depend on the processing

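Across 21 other settings Txnip stayed lower in KO and past the threshold, at −6.98 to −10.4 on the log2 scale, the last with a pseudocount of 0.1 FPKM. Arrdc2, Arrdc3 and Arrdc4 kept a higher value in KO wherever they were tested, at 0.39 to 0.67, 0.06 to 0.41 and 0.47 to 1.18. With the replicate block Arrdc4 stood at 0.82 (limma, adjusted p = 0.349). It was called in the fits with the block named above, at 0.99 with a common sum, 0.83 without pair 2 and 0.78 without pair 3, and the cause was not tested. Its adjusted p ranged from 0.00808 to 1.00 over all settings. Arrdc1 turned to −0.0050 with the median ratio and to −0.014 with quantile normalization, each with and without the block. Leaving out single libraries it ran from −0.22 (without KO 1) to 0.22, with −0.07 without WT 2, and leaving out pairs with the block from −0.081 (without pair 1) to 0.12. Of the named list genes, Ndfip1 turned to −0.042 with the block without pair 2, Arrb2 to −0.13 without KO 1 and −0.11 without WT 2 (highest 0.42, without WT 1), and Mlxip to −0.024 without KO 1 (highest 0.69, without KO 2). With single libraries left out the medians of the NEDD4-type, ESCRT and other arrestin-fold lists ran from 0.02 to 0.11, 0.03 to 0.13 and 0.03 to 0.28. A common sum put the medians of the 6 lists at 0.21 to 0.37, and the median ratio turned that of the Mondo list to −0.01.

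Limma called 1 gene higher and 1 lower. The count called higher was 2 with the replicate block, alone or with a pseudocount of 0.1, the median ratio or quantile normalization. It was 44, with 9 lower, with the block and a common sum, which moved the median of all genes to 0.22. It was 0 without a filter or with a mean of at least 5 FPKM. Leaving out single libraries gave 0 to 1 higher and 1 to 2 lower, and leaving out pairs 1, 2 and 3 with the block 9, 94 and 68 higher and 27, 48 and 50 lower. Those last fits rest on 2 pairs each, so their SE came largely from a spread pooled over genes. Without pair 1 it was 0.250 for Txnip, Arrdc1 and Arrdc4 alike. The p-values of these fits thus hardly reflect the spread of each single gene, and the cause of their larger counts was not tested. The pairing by number changed no other call of a member. Precision is limited by 3 libraries a group, and depth is known for only some of them.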
